A study of Mus musculus with 15 samples.

Results

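The genes *Zcchc12*, *Hap1*, *Ecel1*, *AW551984*, *Asic4*, *Spon1* and *Col25a1* were examined in RNA sequencing libraries of foetal mouse cortex and cultured cortical neurons with and without *Phf6*. These 7 genes, of 23132 genes retained in the count table, were chosen by name because their RNA was higher in the *Phf6*-deleted than in the control cortex in earlier results of these data, and because they are known from neurons of the hypothalamus and other regions below the cortex. The genotype difference in the cortex was therefore the measure that selected them, and it is described here without a test. *Phf6* is an X-linked gene for a chromatin-associated protein, mutated in Börjeson-Forssman-Lehmann syndrome. The series held 15 libraries of polyA RNA from male foetuses on a C57BL/6 background. At E15.5, whole dissected cortex was taken from 3 Phf6+/Y controls and 5 Phf6-/Y foetuses of litters 1, 2 and 3, the latter carrying a germline deletion of *Phf6* exons made with a Cre-deleter strain. At E16.5, dissociated cortical cells were cultured for a day from 3 Phf6+/Y;Nes-creTg/+ controls and 4 Phf6lox/Y;Nes-creTg/+ foetuses of litters 4 to 7. Both neuron groups carried the Nes-cre transgene, which is active in neural progenitors and their progeny, whereas neither cortex group did. Litter 7 held no control. Foetuses were individual animals, and each library was 1 foetus.

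Neurons of the hypothalamus, thalamus and basal forebrain differ from the excitatory neurons of the cortex in the peptides, channels and secreted proteins they make, and the members of this group belong to different molecular families. *Zcchc12* encodes a zinc finger co-activator of bone morphogenetic protein signalling and *Hap1* encodes huntingtin-associated protein 1, a trafficking adaptor abundant in the hypothalamus. *Ecel1* encodes a neuronal membrane protease related to endothelin-converting enzymes, and *Asic4* encodes a protein of the acid-sensing ion channel family. *Spon1* encodes F-spondin, a secreted matrix protein first known from the floor plate, and *Col25a1* encodes a transmembrane collagen that binds amyloid peptides. *AW551984* is a little-studied gene related to *Vwa5a*, which encodes a protein with a von Willebrand factor A domain. A bulk library does not separate a larger number of cells of a type from more RNA in each such cell, which holds for every level below.

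The 7 genes lie on 6 chromosomes of GRCm38, so no more than 2 of them share one. *Zcchc12* lies at chrX:36195904-36199164, *Hap1* at chr11:100347327-100356982, *Ecel1* at chr1:87142874-87157085, *AW551984* at chr9:39587396-39604774, *Asic4* at chr1:75450510-75474340, *Spon1* at chr7:113765998-114043375 and *Col25a1* at chr3:130180358-130599884. RefSeq promoter windows of GRCm38.p6, from 250 bases before to 50 bases after a transcript start, were matched for 5 of the 7 genes, namely *Zcchc12*, *Hap1*, *Ecel1*, *AW551984* and *Col25a1*, with 8 windows between them. The 250 bases before the start are shown for the 4 genes below, because genes that move together invite a look at whether their promoters share letters. Capitals mark GC boxes (GGGCGG on either strand), the only searched motif that fell in these stretches.
Zcchc12, chrX:36195654-36195903, + strand: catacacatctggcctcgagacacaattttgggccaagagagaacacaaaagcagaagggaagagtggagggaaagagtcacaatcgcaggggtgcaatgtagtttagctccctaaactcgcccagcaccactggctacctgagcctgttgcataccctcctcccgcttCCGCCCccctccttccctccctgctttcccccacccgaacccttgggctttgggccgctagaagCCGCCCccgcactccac
Hap1, chr11:100356142-100356391, - strand: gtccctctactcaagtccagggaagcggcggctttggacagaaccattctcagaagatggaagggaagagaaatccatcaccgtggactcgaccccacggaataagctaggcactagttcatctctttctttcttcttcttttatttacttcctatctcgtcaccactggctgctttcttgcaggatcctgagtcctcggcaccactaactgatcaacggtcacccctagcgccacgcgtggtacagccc
Ecel1, chr1:87156357-87156606, - strand: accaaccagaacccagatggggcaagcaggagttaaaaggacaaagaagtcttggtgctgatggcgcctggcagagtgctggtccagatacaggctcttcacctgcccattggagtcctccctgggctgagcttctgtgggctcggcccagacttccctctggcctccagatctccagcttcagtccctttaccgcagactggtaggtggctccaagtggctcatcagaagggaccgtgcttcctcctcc
Col25a1, chr3:130180595-130180844, + strand: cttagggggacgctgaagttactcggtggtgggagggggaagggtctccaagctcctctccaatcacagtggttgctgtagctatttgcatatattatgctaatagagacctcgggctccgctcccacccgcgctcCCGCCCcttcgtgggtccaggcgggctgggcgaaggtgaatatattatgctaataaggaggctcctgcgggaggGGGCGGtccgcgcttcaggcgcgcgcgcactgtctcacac

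The *Zcchc12* stretch ends at the outer edge of the gene, whereas those of *Hap1*, *Ecel1* and *Col25a1* lie inside the gene bounds given above, because the windows belong to transcripts that start further in. *Zcchc12* and *Col25a1* each held 2 GC boxes before the start, whereas *Hap1* and *Ecel1* held none there. A GC box lay in 3 of the 8 windows, in 1 window each of *Zcchc12*, *AW551984* and *Col25a1*, and in 35.7% of all 32851 windows. A TATA box (TATAAA) was found in both *Hap1* windows, beginning 25 or 12 bases after the annotated start, and in 13.6% of all windows. The cyclic AMP response element (TGACGTCA), the left (TTCAGCACC) and right (GGACAGCG) ends of the neuron-restrictive element RE1, the homeodomain core (TAATTA) and the ONECUT core (ATCGAT) had 0 matches in the 8 windows. They occurred in 1.79%, 0.371%, 1.26%, 5.29% and 0.925% of all windows, respectively. None of the motifs searched on both strands was common to all 5 genes, and a match or its absence describes letters only.

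Library totals ranged from 16858007 to 31157700 counted reads. *Phf6* was at 149 to 191 CPM (reads scaled to the size of the library, with TMM factors over the 15 libraries) in control cortices and at 42.4 to 55.2 CPM in Phf6-/Y cortices, and at 228 to 259 CPM in control neurons and 59.9 to 85.8 CPM in Phf6lox/Y;Nes-creTg/+ neurons, so that each library fell on the side its label gives. 1 library stood apart from the others. In Phf6-/Y replicate 1, 29 of 30 listed transcription factor genes of the diencephalon, the region that forms thalamus and hypothalamus, were higher than in any of the other 7 cortices. *Tcf7l2*, which marks thalamic neurons, was at 268 CPM there and at 7.48 to 18.1 CPM in the other cortices. The 30 genes summed to 794 CPM in that library, against 149 to 249 CPM in the others, whereas 13 of 16 genes of cortical excitatory neurons were at their lowest there. These sums were 2705 CPM in that library and 3952 to 4381 CPM elsewhere. *Neurod6*, made by cortical excitatory neurons, was at 280 CPM against 485 to 633 CPM. The fold changes, medians and counts of calls below that use this library are given with and without it, except where a gene outside the group is named with a single value.

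Levels per kilobase of counted gene length (RPKM, from the CPM and the length the authors' table gives) differed widely between the 7 genes. In the control cortex *Zcchc12* was at 43.8 ± 5.25 RPKM and *Hap1* at 34.1 ± 11.3 RPKM (SD, n = 3), and their ranges overlapped. *Ecel1* and *AW551984* followed at 9.01 ± 3.38 and 8.96 ± 2.57 RPKM (SD, n = 3) and did not differ beyond their spread. *Spon1* at 2.90 ± 0.411 RPKM and *Asic4* at 1.75 ± 1.09 RPKM (SD, n = 3) also overlapped, and *Col25a1* was lowest at 0.906 ± 0.0404 RPKM (SD, n = 3). In the control neurons *Zcchc12* and *Hap1* were again the highest, at 10.2 ± 4.92 and 6.51 ± 2.06 RPKM (SD, n = 3), while the ranges of neighbours from *Ecel1* down to *Col25a1* all overlapped. The ranges of *Hap1* and *Ecel1* did not overlap in either tissue, so *Zcchc12* and *Hap1* stood above the other 5 genes in both.

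**Figure D1:**
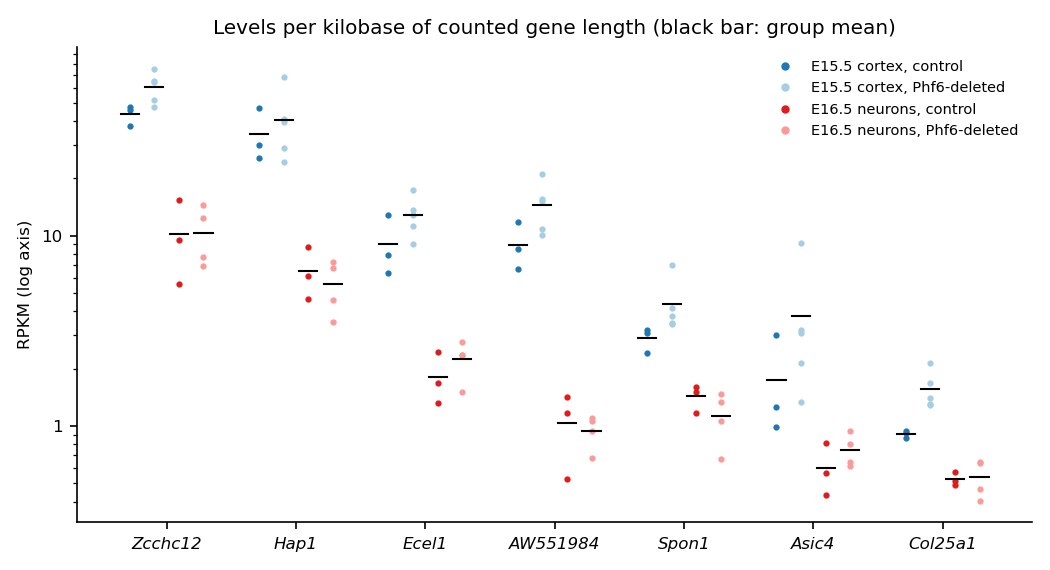
Levels of the 7 genes in RPKM on a log axis in each of the 4 groups, with a point for each library and a black bar for the group mean. The control cortex means run from 43.8 RPKM for Zcchc12 to 0.906 RPKM for Col25a1, and for each gene both neuron means lie below both cortex means.

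In the E15.5 cortex each gene was higher in the Phf6-/Y libraries than in the control of the same litter, with the exception of *Hap1* in a single library. Among all 14750 genes tested, 8.18% had every Phf6-/Y library above its litter-mate control. Of the 7 genes 6 did, a count that the choice of members brings with it. The log2 fold changes below are those of edgeR's quasi-likelihood fit with litter as a term. With that fit 5 of the 7 genes had an FDR below 0.05, against 0.319% of all genes tested that rose, and without Phf6-/Y replicate 1 the count was 2 of 7, against 0.102%. Nothing is read from either count, since the same contrast chose the genes. Their median log2 fold change was 0.63 with all libraries and 0.67 without Phf6-/Y replicate 1, beside medians of -0.002 and 0.008 over all genes tested.

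*Zcchc12* was at 104, 101 and 82.8 CPM in control replicates 1, 2 and 3, which came from litters 3, 2 and 1. The Phf6-/Y libraries gave 165 CPM in replicate 1 of litter 3, 142 and 141 CPM in replicates 2 and 3 of litter 2, and 104 and 112 CPM in replicates 4 and 5 of litter 1. The groups overlapped near 104 CPM, whereas every Phf6-/Y library lay above its own litter's control, by a ratio of 1.25 to 1.58. Its log2 fold change of 0.49 (standard error 0.07) went to 0.44 (standard error 0.08) when Phf6-/Y replicate 1 was left out.

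*Hap1* was at 174, 111 and 94.3 CPM in control replicates 1, 2 and 3 and at 253, 146, 153, 108 and 90.4 CPM in Phf6-/Y replicates 1 to 5. The groups overlapped, and Phf6-/Y replicate 5 was below the control of its litter. Its log2 fold change was the smallest of the 7, at 0.32 (standard error 0.09), and at 0.25 (standard error 0.10) without Phf6-/Y replicate 1.

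*Ecel1* was at 34.6, 21.3 and 17.1 CPM in control replicates 1, 2 and 3 and at 47.0, 36.8, 34.7, 30.2 and 24.3 CPM in Phf6-/Y replicates 1 to 5. The control of litter 3 reached the level of the Phf6-/Y libraries of litter 2, so the groups overlapped, although each Phf6-/Y library was above its litter-mate. On the log2 scale the difference of 0.63 (standard error 0.10) became 0.71 (standard error 0.12) without Phf6-/Y replicate 1.

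*AW551984* was at 51.9, 37.5 and 29.5 CPM in control replicates 1, 2 and 3 and at 93.1, 68.8, 66.9, 47.8 and 44.3 CPM in Phf6-/Y replicates 1 to 5. The libraries fell in the order of litters 3, 2 and 1 in both genotypes. This gene had the smallest standard error relative to its log2 fold change, which was 0.77 (standard error 0.08), or 0.75 (standard error 0.10) without Phf6-/Y replicate 1.

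*Asic4* was at 7.94, 3.33 and 2.62 CPM in control replicates 1, 2 and 3 and at 24.4, 8.42, 8.19, 5.65 and 3.55 CPM in Phf6-/Y replicates 1 to 5. Phf6-/Y replicate 1 was far above the others, and the control of the same litter was far above the other controls. It had the largest log2 fold change of the 7, at 1.24 (standard error 0.20), and was 1.07 (standard error 0.26) without that library. Its counts were low, between 65 and 580 reads in the cortices.

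*Spon1* was at 19.6, 19.1 and 15.0 CPM in control replicates 1, 2 and 3 and at 43.1, 23.4, 25.8, 21.5 and 21.1 CPM in Phf6-/Y replicates 1 to 5. The groups did not overlap, but a single library made much of the difference. As a log2 fold change it was 0.63 (standard error 0.13), against 0.43 (standard error 0.12) without Phf6-/Y replicate 1.

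*Col25a1* was at 7.04, 6.85 and 6.45 CPM in control replicates 1, 2 and 3 and at 16.0, 12.5, 10.5, 9.69 and 9.74 CPM in Phf6-/Y replicates 1 to 5. The groups did not overlap for this gene either, and the controls lay close together. *Spon1* and *Col25a1* were the 2 genes whose groups did not overlap, a pattern with higher levels in Phf6-/Y that 2.47% of all genes tested showed. Its log2 fold change was 0.81 (standard error 0.15), or 0.67 (standard error 0.18) without Phf6-/Y replicate 1.

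**Figure D2:**
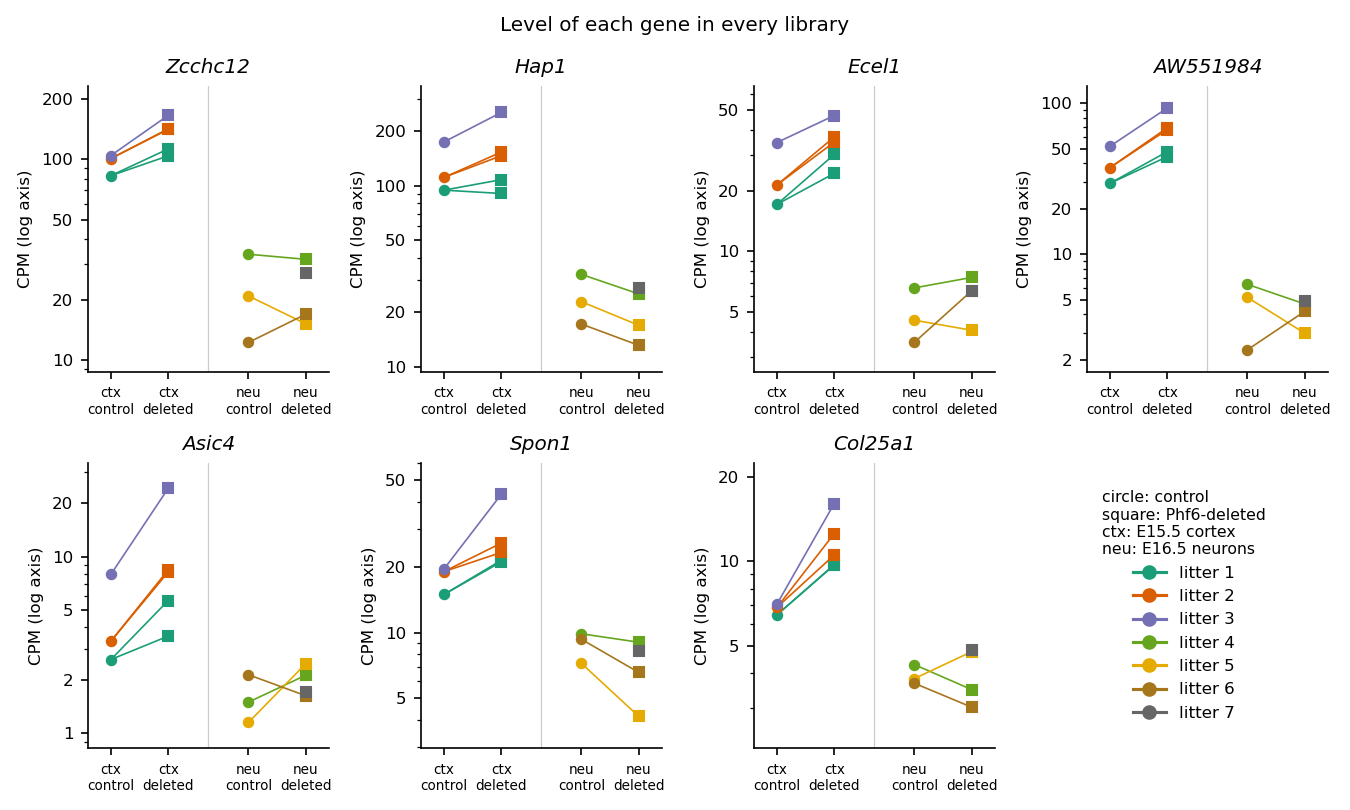
CPM of each gene in every library on log axes, with controls as circles, Phf6-deleted libraries as squares, colours for litters and lines between litter-mates. In the cortex all lines rise except 1 for Hap1, whereas in the neurons the lines run both ways and all fall only for Hap1 and Spon1.

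The rise in the cortex was set beside the genes of neighbouring regions, whose part in it was not tested. In litter 3, the summed diencephalic factors were at 249 CPM in the control and 794 CPM in the Phf6-/Y library, while the 7 genes summed to 399 and 642 CPM. In litter 2, the diencephalic sum was 149 CPM in the control and 198 and 196 CPM in the Phf6-/Y libraries, and the 7 genes summed to 300 CPM in the control and to 438 and 440 CPM in the Phf6-/Y libraries. Litter 1 differed from these, since its diencephalic sum was lower in both Phf6-/Y libraries, at 176 and 161 CPM, than in the control at 185 CPM. There the 7 genes still summed to 326 and 306 CPM in the Phf6-/Y libraries and to 248 CPM in the control.

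Single hypothalamic factors were high in litter 3 in both genotypes. *Otp*, needed for hypothalamic peptide neurons, was at 6.00, 1.27 and 0.967 CPM in control replicates 1, 2 and 3 and at 19.0, 5.16, 3.36, 1.33 and 1.00 CPM in Phf6-/Y replicates 1 to 5. *Sim1*, another factor of those neurons, was at 3.41, 0.436 and 1.81 CPM in the controls and at 14.4, 3.51, 2.49, 0.986 and 0.961 CPM in the Phf6-/Y libraries. In litter 2 both genes were higher in the Phf6-/Y libraries than in the control, and in litter 1 *Otp* was near the level of the control and *Sim1* below it. *Dbx1* reached 12.7 CPM in the library that stood apart and no more than 0.907 CPM in the other cortices. At these low levels it was still above the control in the other litters. In litter 2 it was at 0.860 and 0.402 CPM in the Phf6-/Y libraries against 0 CPM. In litter 1 it was at 0.748 and 0.50 CPM against 0.121 CPM, from 3 to 22 reads a library. Of the 20 diencephalic factors tested, 19 had a positive log2 fold change, with a median of 1.19. With edgeR and with limma-trend 1, *Dbx1*, had an FDR below 0.05, and 8 had an unadjusted p below 0.05 with edgeR. DESeq2 gave 4, namely *Dbx1*, *Otp*, *Hmx2* and *Hmx3*. Without Phf6-/Y replicate 1, 16 of 20 were positive, with a median of 0.44, and 0 had an FDR below 0.05 with edgeR (5 at an unadjusted p below 0.05).

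Markers of other cell types were listed in the same way, and their part in the rise was not tested either. The 22 ganglionic eminence and striatal genes had a median log2 fold change of 0.14, and 2 of them, *Lhx8* and *Foxp2*, passed the test. When Phf6-/Y replicate 1 was left out the median was 0.15 and *Lhx8* alone passed. Their sums were 933 to 1188 CPM in controls and 1004 to 1170 CPM in Phf6-/Y cortices. In litter 3 the sum was 1188 CPM in the control and 1170 CPM in the Phf6-/Y library. It was higher in the Phf6-/Y libraries of the other litters. In litter 2 it was 1106 and 1055 CPM against 933 CPM in the control, and in litter 1 it was 1056 and 1004 CPM against 956 CPM. *Dlx2*, made by interneuron precursors, was at 114 to 192 CPM in controls and 112 to 152 CPM in Phf6-/Y cortices, and *Gad2*, which makes the transmitter GABA, was at 114 to 138 CPM and 114 to 164 CPM. *Six3* was at 29.5 to 43.7 CPM and 29.1 to 52.8 CPM. All 16 cortical excitatory genes had a log2 fold change below 0, with a median of -0.21, and 0 had an FDR below 0.05 with edgeR, limma-trend or DESeq2 (4 at an unadjusted p below 0.05 with edgeR). Without Phf6-/Y replicate 1 the median was -0.08, and 6 of the 16 were above 0. *Emx1*, which marks cortical progenitors and neurons, was at 57.8 to 69.3 CPM in controls and 37.5 to 60.6 CPM in Phf6-/Y cortices. Choroid plexus genes, led by *Ttr*, varied widely within both genotypes, with *Ttr* at up to 433 CPM in controls and up to 297 CPM in Phf6-/Y libraries. The 12 Cajal-Retzius and hem genes summed to 316 to 357 CPM in controls and to 364 to 445 CPM in Phf6-/Y cortices, without overlap. They had a median log2 fold change of 0.13, with *Lhx5* past the test. The median was 0.10 and *Reln* passed in place of *Lhx5* without Phf6-/Y replicate 1. *Trp73* was at 16.2 to 27.4 CPM in controls and 17.3 to 28.6 CPM in Phf6-/Y cortices. Of 8 choroid plexus, 21 non-neuronal and 9 radial glia genes 0 had an FDR below 0.05 with edgeR, limma-trend or DESeq2, and 0, 1 and 1 had an unadjusted p below 0.05 with edgeR. Their median log2 fold changes were -1.35, 0.21 and -0.06, and without Phf6-/Y replicate 1 they were -2.19, 0.24 and -0.04, with 0 past the test with edgeR and 0, 0 and 2 at an unadjusted p below 0.05. Radial glia genes summed to 2143 to 2169 CPM in controls and 1897 to 2286 CPM in Phf6-/Y cortices, and non-neuronal genes to 348 to 652 and 277 to 1038 CPM. *Pecam1* of blood vessels was at 24.6 to 25.8 CPM in controls and 24.2 to 39.6 CPM in Phf6-/Y cortices, and *Csf1r* of microglia was at 12.8 to 23.6 and 12.8 to 28.5 CPM.

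**Figure D3:**
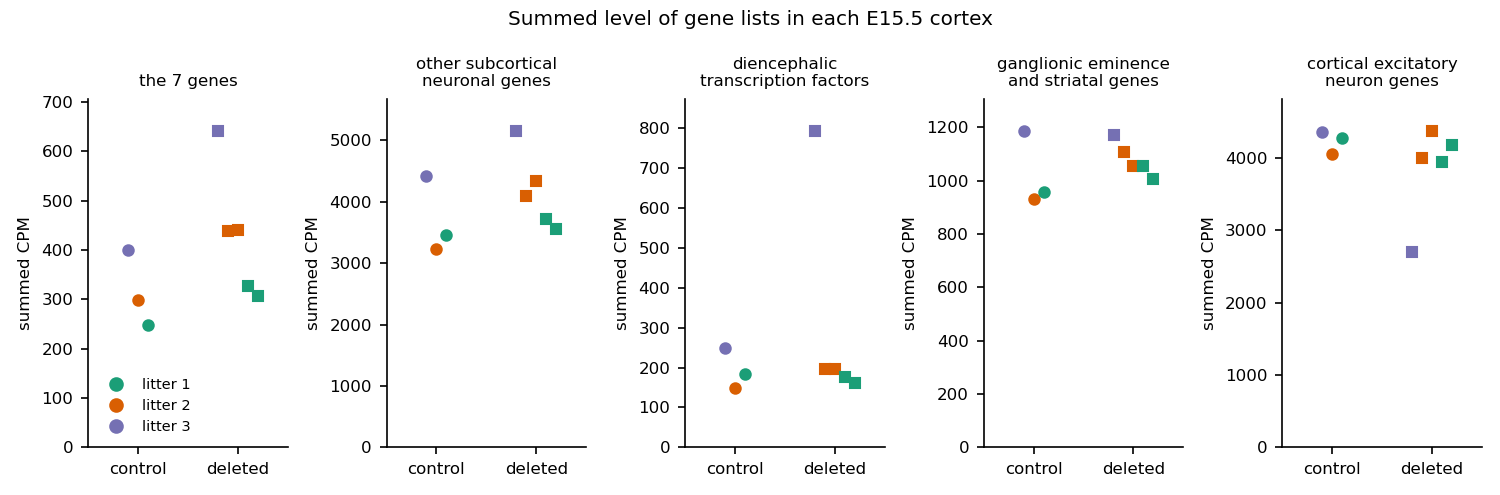
Summed CPM of the 7 genes and of 4 gene lists in each E15.5 cortex, with controls as circles, Phf6-/Y libraries as squares and colours for litters. The 7 genes rise from litter 1 to litter 3 within both genotypes, and Phf6-/Y replicate 1 stands apart at 794 CPM for diencephalic factors and at 2705 CPM for cortical excitatory genes.

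The levels of the 7 genes also differed between the cortex litters. The litter fit used the same 8 libraries and the same residual spread as the contrast that chose the genes, so its values are given as a description, with no test of single genes. With genotype as a term, 5 of the 7 genes (*Zcchc12*, *Hap1*, *Ecel1*, *AW551984* and *Asic4*) had an FDR below 0.05 over the 3 litters by edgeR, against 1.70% of all genes tested. Without Phf6-/Y replicate 1 the genes were *Hap1*, *Ecel1* and *AW551984*, 3 of the 7, against 0.109%. Nothing is read from these counts. *Asic4* had the largest log2 difference of litter 3 over litter 1, at 2.10 (standard error 0.23), or 1.78 (standard error 0.35) without Phf6-/Y replicate 1. *Hap1* was at 1.17 (standard error 0.11), or 1.01 (standard error 0.14) without that library. *AW551984* was at 0.94 (standard error 0.09), or 0.90 (standard error 0.14), and *Ecel1* at 0.90 (standard error 0.12), or 1.05 (standard error 0.17). These 4 genes thus kept a high level in litter 3 when its control was the only library left of it. *Zcchc12* was at 0.50 (standard error 0.09), or 0.37 (standard error 0.12), *Spon1* at 0.75 (standard error 0.16), or 0.35 (standard error 0.18), and *Col25a1* at 0.48 (standard error 0.18), or 0.19 (standard error 0.26). Litter 2 exceeded litter 1 by 0.19 (*Col25a1*) to 0.69 (*Asic4*) with all libraries and by 0.20 to 0.69 for the same genes without Phf6-/Y replicate 1. The litters also differed in the diencephalic genes given above, and the part of these in the litter differences was not tested.

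In the E16.5 cortical neurons no rise with deletion of *Phf6* was detected for the 7 genes. This comparison was on other animals than those that chose the genes. In edgeR's fit, which again held litter, 0 of 7 had an FDR below 0.05, against 0.273% of all 13909 genes tested in either direction, and limma-trend and DESeq2 also gave 0. An unadjusted p below 0.05 was reached by 2 genes, *Hap1* and *Spon1*, both lower in the deleted neurons. Of the 7 log2 fold changes 2 were above 0, and the median of the 7 was -0.09, beside 0.001 over all genes tested. The intervals of *Zcchc12*, *Ecel1*, *AW551984*, *Asic4* and *Col25a1*, given below, lay on both sides of 0. A rise of these genes within their intervals therefore cannot be told from none. The interval of *Ecel1*, from -0.19 to 0.76, held its cortex values of 0.63 with all libraries and 0.71 without Phf6-/Y replicate 1. The interval of *Asic4*, from -0.43 to 1.20, held its cortex value of 1.07 without that library but not 1.24 with all libraries. Those of *Zcchc12*, *AW551984* and *Col25a1* held neither of their cortex values. The genotype effect rested on 3 litters, because litter 7 had no control. Cajal-Retzius and hem genes summed to 121 to 172 CPM in control and to 205 to 383 CPM in deleted neurons, without overlap, and the diencephalic factors to 44.3 to 58.7 and 54.2 to 81.3 CPM. With edgeR, limma-trend and DESeq2 an FDR below 0.05 was reached by *Reln* and *Ndnf* of 10 Cajal-Retzius and hem genes tested. *Lhx9* of 7 diencephalic factors, *Sst* of 20 ganglionic eminence and striatal genes and *Ttr* of 3 choroid plexus genes also passed. All were higher in the deleted neurons. Of 16 cortical excitatory, 9 radial glia and 16 non-neuronal genes 0 passed. The part of these lists in the values of the 7 genes was not tested.

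*Hap1* was at 32.3, 22.8 and 17.2 CPM in control replicates 1, 2 and 3 of litters 4, 5 and 6. It was at 25.2, 16.9 and 13.1 CPM in the deleted neurons of the same litters, replicates 2, 3 and 4, and at 27.1 CPM in replicate 1 of litter 7. The groups overlapped, yet each deleted library was below its litter-mate by a similar ratio, from 0.741 to 0.780. The log2 fold change was -0.39 (standard error 0.10, 95% interval -0.62 to -0.17, unadjusted p = 0.00206, FDR = 0.157 by edgeR).

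*Spon1* was at 9.90, 7.24 and 9.34 CPM in the controls of litters 4, 5 and 6, at 9.05, 4.14 and 6.58 CPM in their deleted litter-mates and at 8.22 CPM in litter 7. It too was lower in each deleted library than in its litter-mate. *Hap1* and *Spon1* were the 2 of 7 genes with that pattern, which 15.7% of all genes tested showed, and 0 of 7 had groups that did not overlap with the deleted lower, against 3.62% of all genes. The log2 fold change of *Spon1* was -0.45 (standard error 0.18, 95% interval -0.84 to -0.06, FDR = 0.390 by edgeR).

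*Zcchc12* was at 33.6, 20.9 and 12.2 CPM in the controls of litters 4, 5 and 6, at 31.7, 15.1 and 16.9 CPM in their deleted litter-mates and at 27.0 CPM in litter 7. The deleted library was lower in 2 litters and higher in litter 6. Its log2 fold change was -0.03 with an interval of -0.33 to 0.27.

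*AW551984* was at 6.31, 5.17 and 2.32 CPM in the controls of litters 4, 5 and 6, at 4.67, 2.99 and 4.18 CPM in their deleted litter-mates and at 4.88 CPM in litter 7. *Col25a1* was at 4.29, 3.83 and 3.68 CPM in those controls, at 3.50, 4.77 and 3.03 CPM in the deleted litter-mates and at 4.83 CPM in litter 7. Litter-mates differed in both directions for both genes. Their log2 fold changes were -0.15 (interval -0.76 to 0.46) and -0.09 (interval -0.61 to 0.42).

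*Ecel1* was at 6.60, 4.57 and 3.55 CPM in the controls of litters 4, 5 and 6, at 7.43, 4.07 and 6.39 CPM in their deleted litter-mates and at 6.35 CPM in litter 7. *Asic4* was at 1.50, 1.15 and 2.15 CPM in those controls, at 2.13, 2.48 and 1.63 CPM in the deleted litter-mates and at 1.72 CPM in litter 7, from 25 to 58 reads a library. These were the 2 genes with a positive log2 fold change, 0.29 for *Ecel1* (interval -0.19 to 0.76) and 0.39 for *Asic4* (interval -0.43 to 1.20). Whether the genotype effects differed between the tissues was not tested, because the cortex effect had chosen the genes.

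**Figure D4:**
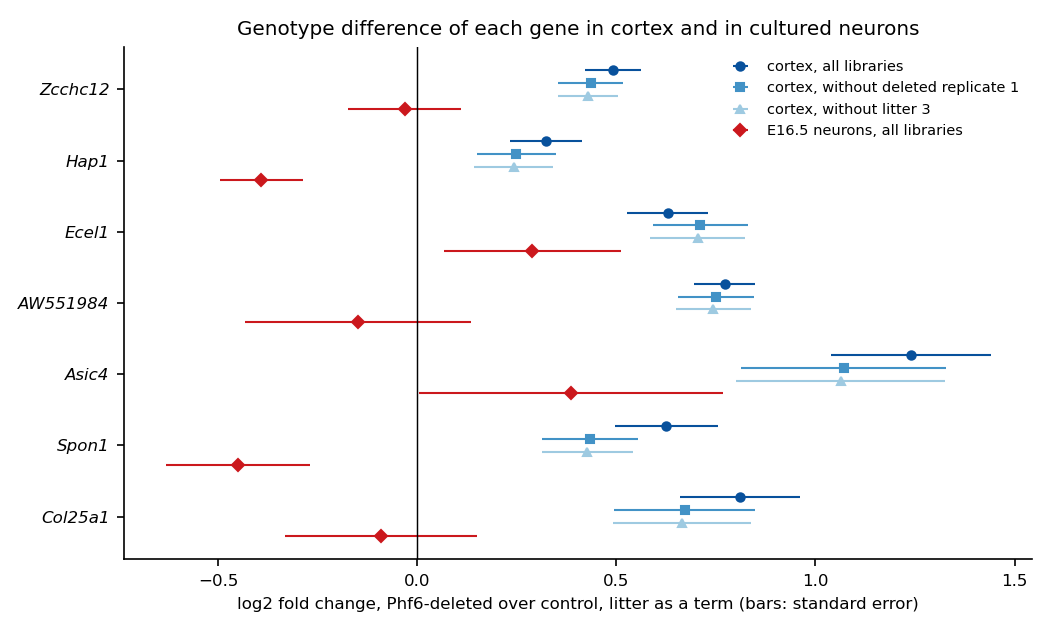
Log2 fold change of Phf6-deleted over control libraries for each gene in the cortex with all libraries, without Phf6-/Y replicate 1 and without litter 3, and in the neurons, with standard errors as bars. The cortex values lie above 0 for all 7 genes in each of the 3 fits, from 0.24 for Hap1 without litter 3 to 1.24 for Asic4, and the neuron values lie on both sides of 0.

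The litters of the neuron cultures took no part in the choice of genes. Over litters 4 to 7, *Hap1* (FDR = 0.00149 by edgeR's quasi-likelihood F test) and *Zcchc12* (FDR = 0.00349) changed, which were 2 of the 7 genes, against 5.01% of all genes tested. *Zcchc12* was lower in litter 6 than in litter 4 by a log2 difference of -1.16 (standard error 0.17), and *Hap1* by -0.92 (standard error 0.13). The other 5 genes did not pass, with FDR values from 0.162 for *Spon1* to 0.977 for *Asic4*.

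All 7 genes were lower in the control neurons than in the control cortex. They passed the test with edgeR at an FDR below 0.05, as did 26.4% of all 14320 genes tested with lower levels in neurons, and for all 7 the groups did not overlap, as for 31.6% of all genes. This comparison shared the control cortices with the contrast that chose the genes. Tissue, embryonic day, culture and the Nes-cre transgene changed together between the groups and cannot be told apart. *AW551984* had the lowest log2 fold change, -3.10 (standard error 0.38, FDR = 0.000554), with 29.5 to 51.9 CPM in the cortex and 2.32 to 6.31 CPM in the neurons. *Hap1* followed at -2.39 (standard error 0.34, FDR = 0.00251), then *Ecel1* at -2.31 (standard error 0.31, FDR = 0.000237) and *Zcchc12* at -2.11 (standard error 0.38, FDR = 0.00712). *Asic4* at -1.54 (standard error 0.43, FDR = 0.00960), *Spon1* at -1.02 (standard error 0.17, FDR = 0.000264) and *Col25a1* at -0.79 (standard error 0.21, FDR = 0.00712) differed least. Without control cortex replicate 1, *Asic4* was at -0.89 and no longer passed (FDR = 0.0958), while the other 6 did. The median of the 7 was -2.11, beside -0.03 over all genes tested, of which 3541 were higher and 3777 lower. Scaling by library totals moved the median of all genes to -0.17 and the split to 2459 higher and 5003 lower, and the 7 genes remained lower, with a median of -2.24. In the deleted libraries the same comparison gave log2 fold changes from -1.55 for *Col25a1* to -3.93 for *AW551984*. Without Phf6-/Y replicate 1 they ran from -1.41 to -3.76 for the same genes. High levels in these Phf6-/Y cortices were what chose the genes, so these values are given as a description, with no test.

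Markers of regions around the cortex were lower in the cultures too. The 30 diencephalic factors summed to 44.3 to 58.7 CPM in control neurons and to 149 to 249 CPM in control cortices, and *Otp* was at no more than 0.147 CPM in any neuron library, with 0 reads in 5 of the 7. The 22 ganglionic eminence and striatal genes summed to 206 to 331 CPM in control neurons and to 933 to 1188 CPM in control cortices. The 16 cortical excitatory genes summed to more in the cultures, 5280 to 5493 CPM against 4060 to 4365 CPM, although 7 of them were higher and 8 lower past the test. Their part in the lower levels of the 7 genes was not tested.

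Other genes of the molecular families and pathways of the 7 were listed beside them, 60 in all. In the cortex 0 of the 53 tested had an FDR below 0.05 with edgeR and with limma-trend, and 4 had an unadjusted p below 0.05. Their median log2 fold change was 0.02. Without Phf6-/Y replicate 1 it was 0.02 over 52 genes, with 0 past the test with edgeR and 3 at an unadjusted p below 0.05. *Ahi1*, which encodes a binding partner of HAP1, came closest, at 0.35 (standard error 0.07, FDR = 0.0596 by edgeR), and was the 1 gene of the list that passed with DESeq2. It was at 0.33 (standard error 0.09, FDR = 0.224 by edgeR) without Phf6-/Y replicate 1. It was at 131 to 144 CPM in control and 147 to 192 CPM in Phf6-/Y cortices. *Trak1*, which encodes a motor adaptor with homology to HAP1, was at -0.21 (standard error 0.08). Among relatives of *Zcchc12*, *Pnma3* was at 0.32 (standard error 0.13) and the bone morphogenetic protein receptor gene *Bmpr1b* at 0.25 (standard error 0.13). *Ece2* and *Mme*, proteases of the family of *Ecel1*, were at 0.17 (standard error 0.11) and -0.34 (standard error 0.19). The acid-sensing channel gene *Asic1* was at -0.06 (standard error 0.07) and *Asic3* at -0.43 (standard error 0.50). *Thbs1* and *Dab1*, listed with *Spon1*, were at -0.15 (standard error 0.10) and -0.12 (standard error 0.08), *Ptprd* and *Col23a1*, listed with *Col25a1*, at 0.18 (standard error 0.08) and 0.38 (standard error 0.40), and *Vwa5a* and *Vwa5b2*, listed with *AW551984*, at -0.05 (standard error 0.15) and -0.08 (standard error 0.15). In the neurons 0 of 47 had an FDR below 0.05 with edgeR, limma-trend or DESeq2, and 4 had an unadjusted p below 0.05 with edgeR.

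A further list held 34 other genes known from subcortical neurons. It was written with results of these data known, so its counts and FDR values in the cortex are given as a description. It included peptides, transmitter enzymes, imprinted genes and factors, some of which cortical neurons also make. Of the 33 tested in the cortex, 27 had a positive log2 fold change, with a median of 0.48. An FDR below 0.05 with higher levels in Phf6-/Y libraries was reached by 6, against 0.319% of all genes tested. *Onecut2*, a transcription factor gene, changed by 0.98 (standard error 0.14, FDR = 0.0110), from 10.2 ± 3.24 CPM (SD, n = 3) to 19.1 ± 9.75 CPM (SD, n = 5). *Pou2f2* changed by 0.82 (standard error 0.13, FDR = 0.0227) and *Zfhx3* by 0.81 (standard error 0.13, FDR = 0.0368), also genes of transcription factors. The imprinted gene *Peg3* changed by 0.56 (standard error 0.09, FDR = 0.0227), *Calb2*, which encodes calretinin, by 0.56 (standard error 0.11, FDR = 0.0393) and *Tmem130* by 0.52 (standard error 0.09, FDR = 0.0368), all by edgeR. Without Phf6-/Y replicate 1, 27 of 33 were positive, with a median of 0.32, and 0 passed with edgeR, 17 having an unadjusted p below 0.05. With all libraries limma-trend gave 7 and DESeq2 12 of the 33. In the neurons 0 of 23 passed with edgeR or limma-trend and 6 had an unadjusted p below 0.05 with edgeR. *Tmem130*, at 0.37 (standard error 0.07, FDR = 0.0561), came closest and passed with DESeq2. In the control neurons 23 of 31 were lower than in the control cortex with an FDR below 0.05 by edgeR, and 2 were higher. Of all 14320 genes tested, 3777 were lower and 3541 higher at that threshold.

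The 7 genes varied together across the cortices. Over 8 libraries Pearson's r between the log2 CPM of 2 members ranged from 0.61 to 0.97 over the 21 pairs (median 0.89). Over the 7 libraries without Phf6-/Y replicate 1 it ranged from 0.21 to 0.98 (median 0.81). The libraries shared litters and genotypes, and the genotype difference that chose the genes is part of these values. The 5 genes outside the group whose log2 CPM was most like the mean standardised profile of the 7 over the 8 libraries were *Ptprn* (r = 0.986), *Rtl1* (r = 0.985), *Sorcs3* (r = 0.981), *Th* (r = 0.973) and *Iqsec3* (r = 0.969). *Th* encodes tyrosine hydroxylase of dopamine synthesis and was low, with no library above 7.22 CPM. Over the 7 libraries without Phf6-/Y replicate 1 they were *Rftn1* (r = 0.987), *Camk2a* (r = 0.983), *Tram1l1* (r = 0.975), *Ptprn* (r = 0.968) and *Tmem143* (r = 0.967). *Ptprn*, which encodes a protein of dense-core vesicles, was the gene that both lists held, at 9.39 to 32.4 CPM over the 8 libraries.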

How the data were processed

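PolyA RNA of 15 libraries was sequenced. The authors deposited raw counts of reads for each Entrez gene. They had aligned paired-end reads of stranded libraries to mm10 with Rsubread v1.21.12 and counted them by featureCounts over its own RefSeq annotation. The strand setting of the counting is not given in the sources used here, so reads of *Zcchc12*, *Ecel1*, *Asic4*, *Spon1* and *Col25a1* cannot be told apart from those of the non-coding RefSeq genes that overlap them. Entries without an identifier (0.349 to 0.605% of counts) and, as in the study, pseudogenes (835), ribosomal RNA genes (35) and predicted genes (1273) were removed, leaving 23132 genes. Identifiers were matched to GRCm38 RefSeq names (25275 of 26150). All sample columns were mapped.

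Genes were filtered with filterByExpr, scaled by TMM and tested with edgeR 4.0.16 (R 4.3.3, robust quasi-likelihood F tests) with Benjamini-Hochberg adjustment over all genes tested at 0.05. Litter, given by the labels, was a term in the genotype fits and genotype in the litter fits. The fit of control neurons against control cortex had no other term. In the neurons all 3 litter-mate pairs deviated together from their group means (r from 0.156 to 0.347), and in the cortex the 5 pairs ranged from -0.126 to 0.482. Pairs from different litters ranged from -0.333 to 0.288 in the neurons and from -0.444 to 0.133 in the cortex, so the ranges overlapped. Levels are CPM with TMM over the 15 libraries, and per-length levels use the deposited lengths. Likeness used log2(CPM + 0.5). Alternatives were size factors of DESeq2, library totals, no filter, limma-trend (limma 3.58.1), DESeq2 1.42.0, no litter term, each library left out, litter 3 left out and deleted in place of control libraries. The fits were tested on simulated data. The members and gene lists were chosen with earlier results of these data known. The text names all 7 members, and of the listed relatives and other subcortical genes those with an FDR below 0.05 in a genotype contrast and the 2 with the lowest p in the cortex in each list. The sums and counts of lists, the litter differences and the comparison of deleted libraries without Phf6-/Y replicate 1 were chosen after seeing the data. P-values rest on the spread between libraries of individual foetuses that the terms of each fit leave. Within a genotype, each neuron library came from its own litter, as did each control cortex. In the fit of control neurons against control cortex, differences between foetuses therefore cannot be told apart from differences between litters. In the neuron fits the spread left by the terms came from the 3 litter-mate pairs. There, differences between foetuses of a litter cannot be told apart from a genotype effect that varies between litters.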

Additional observations from a re-analysis of the deposited data

Results flagged for a closer look

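In 2 of the 14 groups of 4 or 5 libraries examined (7 genes in the Phf6-/Y cortices and in the Phf6lox/Y;Nes-creTg/+ neurons), 1 library lay far from the others. For *Asic4* it was Phf6-/Y replicate 1, at 24.4 CPM against 3.55 to 8.42 CPM in the other 4, and the gap took up 0.766 of the range of the group. For *Spon1* it was the same library, at 43.1 CPM against 21.1 to 25.8 CPM, with a gap of 0.789 of the range. Dixon's critical value for 5 libraries is 0.71, and chance passes it in about 1 in 20 groups. This is the library with high diencephalic genes, and the part of those genes in these values was not tested.

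*Spon1* had log2 fold changes of opposite sign in the 2 tissues, and it had an FDR above 0.05 in both (0.390 in the neurons by edgeR). It was higher in each of the 5 Phf6-/Y cortices than in the litter-mate control and lower in each of the 3 deleted neuron libraries that had a litter-mate, with a log2 fold change of -0.452 in the neurons. The difference between the tissues was not tested, since the cortex effect had chosen the gene.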

How the results depend on the processing

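In the cortex the log2 fold changes of all 7 genes stayed above 0 under every alternative run. The number of genes with an FDR below 0.05, 57 with edgeR, was 114 without a filter, 195 with DESeq2, 10 without litter 3 and 7 to 81 with each library left out. The members among them, 5, were 1 without litter 3 and 1 to 6 with each library left out. Of the 8 libraries, 5 moved these counts by more than 1.5 times: without control replicates 1, 2 and 3 they were 10, 7 and 13 genes with 1, 1 and 2 members, and leaving out the deleted replicates 1 and 2 gave 17 and 10 genes with 2 and 1 members. With no litter term, that is without the block that pairs litter-mates, 1 gene passed in the cortex and 0 members, and 1 gene in the neurons.

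In the neurons the count of genes, 38, was 73 with library totals, 297 without a filter, 63 with DESeq2 and 16 to 494 with each library left out. Without control replicates 1, 2 and 3 it was 110, 16 and 494, and without deleted replicates 2, 3 and 4, their litter-mates, it was 115, 21 and 383. Of the members 1, *Hap1* (-0.40, FDR = 0.0386 by edgeR), passed without a filter. Values near 0 changed sign: without the block *Zcchc12* was at 0.034 and *Col25a1* at 0.028, and with each library left out *Zcchc12* ranged from -0.26 to 0.16, *AW551984* from -0.60 to 0.13 and *Col25a1* from -0.29 to 0.024.

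The litter effect in the cortex, 251 genes, was 482 without a filter, 834 with DESeq2 and 16 to 586 with each library left out, with 3 to 6 members. Leaving out control replicates 1 and 3 gave 543 and 128 genes, and deleted replicates 1, 2, 3 and 5 gave 16, 60, 150 and 586. In the neurons, 697 genes were 1961 without a filter and 488 to 2398 with each library left out, with 2 to 3 members. Control replicates 1 and 3 (1183 and 2157 genes) and deleted replicates 2 and 4 (1269 and 2398) moved it most. In the comparison of control neurons with control cortex, library totals moved the median of all genes from -0.03 to -0.17 and the split to 2459 higher and 5003 lower from 3541 and 3777. All 7 members stayed lower. At 25 to 58 reads a library, *Asic4* in the neurons was measured with the least precision.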
